A study of Rattus norvegicus with 30 samples.

Results

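The step from day 8 to day 10 of serum starvation was followed in REF cells, an untransformed line of rat embryonic fibroblasts, by comparing 3 libraries of total RNA taken after 10 days without serum with 3 taken after 8 days. These 6 libraries belong to a course of 30, which holds unstarved control cells and 9 durations of starvation from 2 to 16 days, 3 libraries each. The groups differ in nothing else that the labels record. Both are the same line, both had been without serum for over a week, and the labels record no drug or genetic change in either. All 17353 gene symbols of the deposited table were members, in FPKM (fragments per kilobase of transcript, a level corrected for transcript length and library size), and 8940 of them, those averaging 1 FPKM or more across all 30 libraries, were tested. The question put by the series title is how quiescence, the resting state out of the cell cycle, grows deeper as starvation goes on. The labels do not say whether the 3 libraries of a group came from separate cultures. The p-values therefore measure only the spread between libraries within groups, estimated from all 30 libraries and not from these 6 alone.

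Fibroblasts deprived of serum leave the cell cycle because growth factor signaling falls, and they can stay alive and return to division when serum comes back. Serum also carries lipoproteins. Without that supply a cell makes its own sterols through the mevalonate pathway, whose genes are switched on together by SREBP2 when sterols in the endoplasmic reticulum run low. SREBP proteins bind sterol response elements in promoters and act with a second factor, NF-Y, which binds the sequence CCAAT. Ribosomal proteins, serine synthesis enzymes and endoplasmic reticulum chaperones are other parts of the biosynthetic machinery whose mRNAs respond to nutrients.

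No read counts were used here, and sequencing depth is unknown. FPKM summed to between 611240 and 654320 in the day 8 libraries and to between 632046 and 756653 at day 10, and the sums of day 10 replicates 2 and 3 (726617 and 756653) lay above all 3 day 8 sums. The lowest tail of the non-zero values (5th percentile) is a rough mark of relative depth, and a lower value goes with a deeper library. It stood at 0.0824 and 0.106 FPKM in the 2 libraries numbered replicate 1 and at 0.160 to 0.291 FPKM in the other 4. Pearson correlations of log2 values across genes were 0.9871 to 0.9911 within day 8, 0.9859 to 0.9891 within day 10 and 0.9830 to 0.9906 between the days, so the days were nearly as alike as their own replicates. Fibroblast markers summed to between 16053 and 17805 FPKM at day 8 and between 17161 and 17642 FPKM at day 10, with Fn1 the highest, although Col1a2 and Thy1 were listed at 0 in all 6 libraries and Dcn and Pdgfra did not reach the level filter. None of 11 macrophage and none of 9 endothelial markers reached the filter. It was reached by 1 of 9 adipocyte, 5 of 12 neural and 1 of 9 epithelial markers, the last being Krt8, while 7 epithelial markers were listed at 0 in all 6 libraries. Muscle markers, of which 4 of 13 reached it and 5 were listed at 0 in all 6 libraries, summed to between 66.8 and 70.8 FPKM at day 8 and between 75.7 and 106 FPKM at day 10. In a population RNA measurement, fewer cells of a type and less RNA per cell cannot be told apart.

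Between day 8 and day 10, 106 genes rose and 30 fell at an adjusted p under 0.05, which is 1.19% and 0.336% of the 8940 genes tested. The changes were small. Of the 106 that rose, 28 rose by at least 1.5-fold and 2 by at least 2-fold, the secreted phosphoprotein gene Spp1 and a microRNA gene, Mir3554 (named, like Apoc3 and Lsp1 below, after its values were seen), that was listed at 0 in all day 8 libraries and in 1 of the day 10 libraries. Of the 30 that fell, 13 fell by at least 1.5-fold and 3 by at least 2-fold, namely Txnip, Klf2 and the lowly expressed apolipoprotein gene Apoc3. The median change of all genes was 0.0035 (log2), and the smallest change that passed was 0.23. Genes that rose had a median level of 59.6 FPKM over the 6 libraries and genes that fell 29.3 FPKM, against 16.7 FPKM for all genes tested. In 134 of the 136 genes the 3 day 10 libraries did not overlap the 3 day 8 libraries, a pattern that 17% of all genes tested showed. The fit, an empirical Bayes linear model (limma) on log2(FPKM + 1), estimated the spread from all 10 groups, and folds are on that scale.

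**Figure D1:**
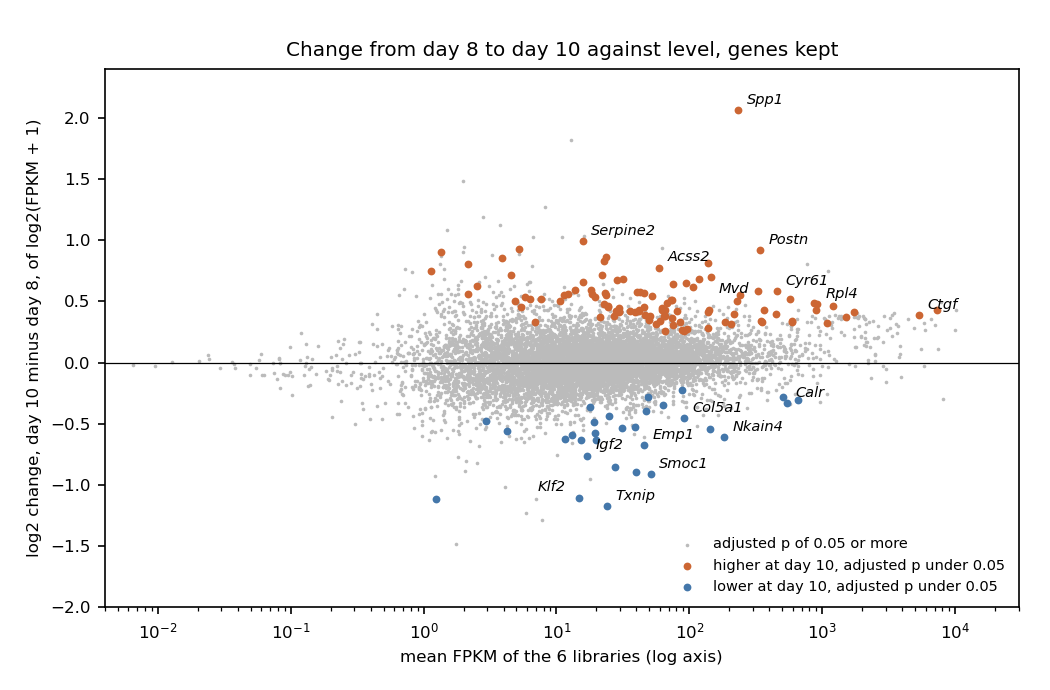
Change from day 8 to day 10 (log2 of FPKM + 1, y axis) against the mean FPKM of the 6 libraries (x axis, log scale) for the genes kept, short RNA genes left out. Orange points are genes past the threshold that were higher at day 10, blue points those that were lower and grey points the rest, and Spp1 stands alone above a change of 2.

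The split into 106 rises and 30 falls depends on how the libraries are scaled. With every library rescaled to the same FPKM sum the median of all genes moved by -0.13 (log2), and 25 genes rose and 81 fell. With short RNA genes left out and the rest rescaled, the median moved by -0.11, with 38 rises and 112 falls. Quantile normalization gave 84 rises and 52 falls, and a fit of these 6 libraries alone 10 and 7. All of the 136 genes that could be tested under these settings kept their sign. Leaving out 1 library gave between 35 rises (without day 8 replicate 3) and 154 (without day 10 replicate 1), and between 13 and 39 falls. Without day 8 replicate 1 or 2 or day 10 replicate 2 or 3, the rises numbered 67, 43, 43 and 37 and the falls 23, 15, 14 and 16.

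Among the largest rises were 3 genes of secreted proteins. Spp1 encodes osteopontin, a secreted phosphoprotein that binds integrins. Its levels were 109, 82.6 and 78.9 FPKM at day 8 and 378, 396 and 354 FPKM at day 10. Every day 10 library stood more than 3 times above every day 8 library, and the mean rose 4.17-fold (log2 change 2.06 ± 0.10, SE, adjusted p = 2.28e-13). Postn, which encodes the matrix protein periostin, stood at 254, 227 and 223 FPKM at day 8 and 387, 476 and 472 FPKM at day 10. The groups did not overlap, and day 10 replicate 1 was the lowest of its group (1.89-fold, adjusted p = 2.08e-05). Serpine2 encodes protease nexin-1, an inhibitor of thrombin and of plasminogen activators, and its levels were 9.61, 10.5 and 10.4 FPKM at day 8 and 18.8, 23 and 22 FPKM at day 10. It rose 1.99-fold (adjusted p = 2.69e-06), with no overlap. The Spp1 and Serpine2 calls held under all 22 alternative settings.

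**Figure D2:**
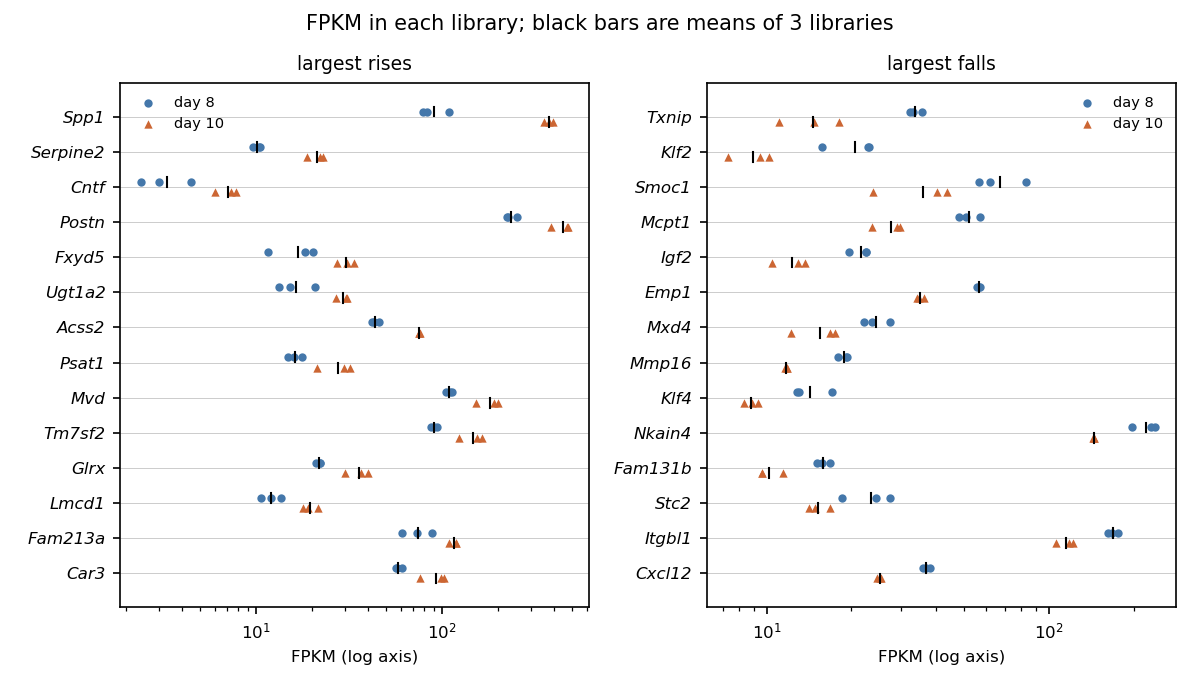
FPKM of genes with the largest rises and falls in each of the 6 libraries (log axis), day 8 beside day 10, with points for single libraries and black bars at means of 3. For Spp1, the day 8 points lie between 78.9 and 109 FPKM and the day 10 points between 354 and 396 FPKM.

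Other large rises were in genes of metabolism, signaling and membrane proteins. Acss2, which makes acetyl-CoA from acetate in the cytosol and nucleus, stood at 45.6, 43.3 and 42.2 FPKM at day 8 and 75.2, 76.2 and 74.9 FPKM at day 10 with little spread in either group (1.71-fold, log2 change 0.78 ± 0.085, adjusted p = 3.65e-06). The Acss2 call also held under all 22 alternatives. Fxyd5, a regulator of the sodium pump, rose from 16.7 ± 4.53 to 30.6 ± 3.13 FPKM (mean ± SD, n = 3, adjusted p = 0.00105). The glutaredoxin gene Glrx, whose protein removes glutathione from protein thiols, rose from 21.8 ± 0.579 to 35.7 ± 5.04 FPKM (adjusted p = 0.00056). Ugt1a2, a UDP-glucuronosyltransferase whose exons are partly shared with other Ugt1a transcripts, so that its level is uncertain, rose from 16.4 ± 3.89 to 29.4 ± 2.08 FPKM (adjusted p = 0.00112). Lmcd1, a LIM domain cofactor, rose from 12 ± 1.49 to 19.5 ± 1.85 FPKM (adjusted p = 0.00319), and carbonic anhydrase 3 (Car3) from 58.3 ± 2.43 to 92.4 ± 14.3 FPKM (adjusted p = 0.0158). The peroxiredoxin-like gene Fam213a rose from 74.2 ± 13.8 to 116 ± 6.24 FPKM (adjusted p = 0.00876) and the ciliary neurotrophic factor gene Cntf from 3.3 ± 1.06 to 7.06 ± 0.919 FPKM (adjusted p = 0.0307). On leaving out 1 library the adjusted p passed 0.05 for Cntf (0.125 to 0.171 with day 8 replicate 2 or 3 or day 10 replicate 2 or 3 left out), Car3 (0.0515 to 0.113 with day 8 replicate 1, 2 or 3 or day 10 replicate 3 left out) and Fam213a (0.0505 to 0.0844 with day 8 replicate 2 or 3 or day 10 replicate 2 left out). The Cntf, Car3, Lmcd1 and Fam213a calls were also lost with libraries rescaled to an equal sum.

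The largest fall was that of Txnip, whose protein binds thioredoxin and restrains glucose uptake, and which is itself induced by glucose. Its levels were 32.4, 35.4 and 33 FPKM at day 8 and 14.7, 11 and 18 FPKM at day 10. All 3 day 8 libraries lay close together, and every day 10 library lay far below them. The mean fell 2.26-fold (log2 change -1.17 ± 0.19, adjusted p = 0.000826). The transcription factor genes Klf2 and Klf4, both of which restrain proliferation, also fell. Klf2 stood at 23.1, 15.7 and 22.9 FPKM at day 8 and 10.2, 7.3 and 9.44 FPKM at day 10 (adjusted p = 0.0397) and Klf4 at 13, 12.8 and 17 FPKM at day 8 and 8.91, 9.3 and 8.31 FPKM at day 10 (adjusted p = 0.017), with no overlap in either. Mxd4, which encodes a partner of MAX that opposes MYC, fell from 24.4 ± 2.77 to 15.5 ± 2.85 FPKM (adjusted p = 0.00809). Without 1 library the adjusted p passed 0.05 for Klf2 (0.0503 to 0.227 with day 8 replicate 1, 2 or 3 or day 10 replicate 2 or 3 left out), Klf4 (0.0501 to 0.17 with day 8 replicate 3 or day 10 replicate 2 or 3 left out) and Mxd4 (0.084 and 0.0879 with day 8 replicate 3 or day 10 replicate 2 left out). The Klf2 call was also lost with libraries rescaled to an equal sum.

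Several genes of secreted and surface proteins fell in the same step. The membrane protein gene Emp1 stood at 56.5, 57.3 and 55.9 FPKM at day 8 and 34.6, 34.3 and 36.3 FPKM at day 10 and fell 1.6-fold (adjusted p = 0.00056), and the chemokine gene Cxcl12 at 35.8, 36.8 and 37.8 FPKM at day 8 and 25.3, 24.6 and 25.5 FPKM at day 10, a fall of 1.45-fold (adjusted p = 0.000791). In both the 3 libraries of a day differed by little. The calcium-binding matrix protein gene Smoc1 fell from 67.1 ± 13.9 to 35.8 ± 10.5 FPKM (adjusted p = 0.00689) and the growth factor gene Igf2 from 21.5 ± 1.67 to 12.3 ± 1.68 FPKM (adjusted p = 0.0113). The mast cell protease gene Mcpt1 fell from 52 ± 4.63 to 27.5 ± 3.31 FPKM (adjusted p = 0.00158), a symbol whose reads may be shared with near-identical family members. Falls also passed in the membrane metalloproteinase Mmp16 (1.55-fold), the sodium pump-interacting protein Nkain4 (1.53-fold), Fam131b (1.5-fold), the secreted glycoprotein stanniocalcin 2 (Stc2, 1.49-fold) and the integrin beta-like protein Itgbl1 (1.46-fold). The adjusted p passed 0.05 on omission of 1 library for Smoc1 (0.084 and 0.0721 with day 8 replicate 3 or day 10 replicate 2 left out), Igf2 (0.0552 to 0.0936 with day 8 replicate 2 or 3 or day 10 replicate 2 left out), Mmp16 (0.0503 and 0.0505 with day 8 replicate 2 or day 10 replicate 3 left out), Stc2 (0.0824 to 0.327 with day 8 replicate 2 or 3 or day 10 replicate 1, 2 or 3 left out) and Itgbl1 (0.0567 to 0.223 with day 8 replicate 1, 2 or 3 or day 10 replicate 1, 2 or 3 left out).

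Several genes of cholesterol synthesis and its control rose. Of 25 listed, 24 were tested, of which 10 rose and 0 fell, where 1.19% of all genes tested rose. The median change was 0.37 (log2), against 0.0035 for all genes. In 19 of the 24 the day 10 libraries all lay above the day 8 libraries and in 1 all below, against 8.72% and 8.26% of all genes. The mean of the list, relative to the day 8 mean, was 0.0019, -0.014 and 0.012 (log2) in the day 8 libraries and 0.315, 0.369 and 0.379 at day 10. All 3 replicates thus shared the difference. Promoter sequences of 4 genes that rose are shown here because they share a short sequence: 3 of the cholesterol list and Acss2 of the fatty acid list. They are the 250 bases before the transcription start, from RefSeq on the GRCr8 build, 5′ to 3′ on the gene's strand, in lower case, with CCAAT and its reverse complement ATTGG in capitals. The 4 were chosen after the values were seen.
Mvd, chr19:67414975-67415224, minus strand: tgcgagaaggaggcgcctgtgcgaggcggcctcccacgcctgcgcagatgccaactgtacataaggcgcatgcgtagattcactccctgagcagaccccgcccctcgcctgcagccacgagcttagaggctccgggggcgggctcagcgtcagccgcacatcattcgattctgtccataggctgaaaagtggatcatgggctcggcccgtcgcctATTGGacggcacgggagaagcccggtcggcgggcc
Msmo1, chr16:29746863-29747112, plus strand: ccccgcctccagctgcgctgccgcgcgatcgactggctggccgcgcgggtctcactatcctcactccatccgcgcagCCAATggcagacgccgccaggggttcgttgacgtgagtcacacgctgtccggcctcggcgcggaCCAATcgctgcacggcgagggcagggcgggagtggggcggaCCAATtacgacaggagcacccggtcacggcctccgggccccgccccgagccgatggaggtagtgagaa
Hmgcs1, chr2:53382054-53382303, plus strand: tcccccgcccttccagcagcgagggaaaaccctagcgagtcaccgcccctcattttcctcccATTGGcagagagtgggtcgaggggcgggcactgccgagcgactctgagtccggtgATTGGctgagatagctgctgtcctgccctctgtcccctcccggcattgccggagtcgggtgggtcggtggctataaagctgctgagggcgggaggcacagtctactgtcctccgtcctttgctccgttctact
Acss2, chr3:164464453-164464702, plus strand: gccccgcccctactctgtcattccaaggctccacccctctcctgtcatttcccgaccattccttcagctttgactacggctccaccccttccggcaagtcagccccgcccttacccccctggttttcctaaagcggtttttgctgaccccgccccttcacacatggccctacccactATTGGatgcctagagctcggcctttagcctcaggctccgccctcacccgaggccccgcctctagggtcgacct
Mvd and Acss2 have 1 such match, Hmgcs1 has 2 and Msmo1 has 3. In windows from 250 bases before to 50 after the start, searched on both strands, CCAAT was found in 14 of the 17 members with a window (82.4%) and in 7 of the 9 that rose and have a window (77.8%). These counts are by gene, with a match in any window of the gene. Of the 6972 genes tested that have a window 39.4% held it, and of all 33469 windows, counted singly, 37.5%. The 8-letter sequence CACNCCAC, the core of a sterol response element, was found in 3 of the 17 (17.6%) and in 1 of the 9 that rose (11.1%). It was found in 5.9% of the genes tested that have a window and in 5.8% of all single windows. Both motifs were chosen after the values were seen, and a match is a description of the letters, not a binding site.

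The members are given here in the order of the pathway. Hmgcs1, a synthase at the start of the mevalonate pathway, stood at 196, 175 and 187 FPKM at day 8 and 252, 245 and 240.2 FPKM at day 10. Its groups did not overlap, and it rose 1.32-fold (adjusted p = 0.00827). The kinase Mvk rose from 52.5 ± 1.99 to 66.8 ± 5.8 FPKM (adjusted p = 0.0437), the decarboxylase Mvd from 109.6 ± 3.89 to 180.2 ± 25.1 FPKM (adjusted p = 0.00319) and the isomerase Idi1 from 54.2 ± 3.55 to 73.3 ± 3.02 FPKM (adjusted p = 0.0465). Mvd had the largest change of the list, with 105, 113 and 111 FPKM at day 8 and 152, 189.5 and 199 FPKM at day 10. Replicate 1 was the lowest at both days. In the sterol arm, the epoxidase Sqle rose from 184 ± 13.8 to 229 ± 15.1 FPKM (adjusted p = 0.0393), the demethylase Cyp51 from 311 ± 16.8 to 392 ± 21.5 FPKM (adjusted p = 0.0143) and the C4-methyl oxidase Msmo1 from 473 ± 3.52 to 680.5 ± 67.7 FPKM (adjusted p = 0.000992). The reductases Tm7sf2 and Dhcr7, which remove double bonds from the sterol ring, rose from 90.8 ± 3.46 to 147 ± 21 FPKM (adjusted p = 0.0011) and from 38.3 ± 1.6 to 52.9 ± 0.226 FPKM (adjusted p = 0.00273). Among the genes of control, Insig1, which holds SREBP in the endoplasmic reticulum when sterols are plentiful, stood at 204, 182 and 178 FPKM at day 8 and 275, 260.5 and 264 FPKM at day 10 and rose 1.42-fold (adjusted p = 0.000719). The transcription factor Srebf2 did not pass (70.8 ± 3.98 and 77.6 ± 6.36 FPKM, adjusted p = 0.644). With libraries rescaled to an equal sum 3 members rose, with short RNA left out 4, and in the fit of 6 libraries 0. Leaving out 1 library left between 5 and 8 rises. The lowest, 5, came without day 8 replicate 2, and 6 were left without day 8 replicate 3 or day 10 replicate 2 or 3. Adjusted p passed 0.05 for Hmgcs1 without day 8 replicate 2 (0.0603) and for Idi1 without each of the 6 libraries (0.0682 to 0.223). For Mvk it was 0.097 to 0.276 with day 8 replicate 1, 2 or 3 or day 10 replicate 2 or 3 left out. For Sqle it was 0.0664 to 0.225 with day 8 replicate 2 or 3 or day 10 replicate 1, 2 or 3 left out. For Cyp51 it was 0.0505 to 0.0977 with day 8 replicate 2 or 3 or day 10 replicate 2 or 3 left out.

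**Figure D3:**
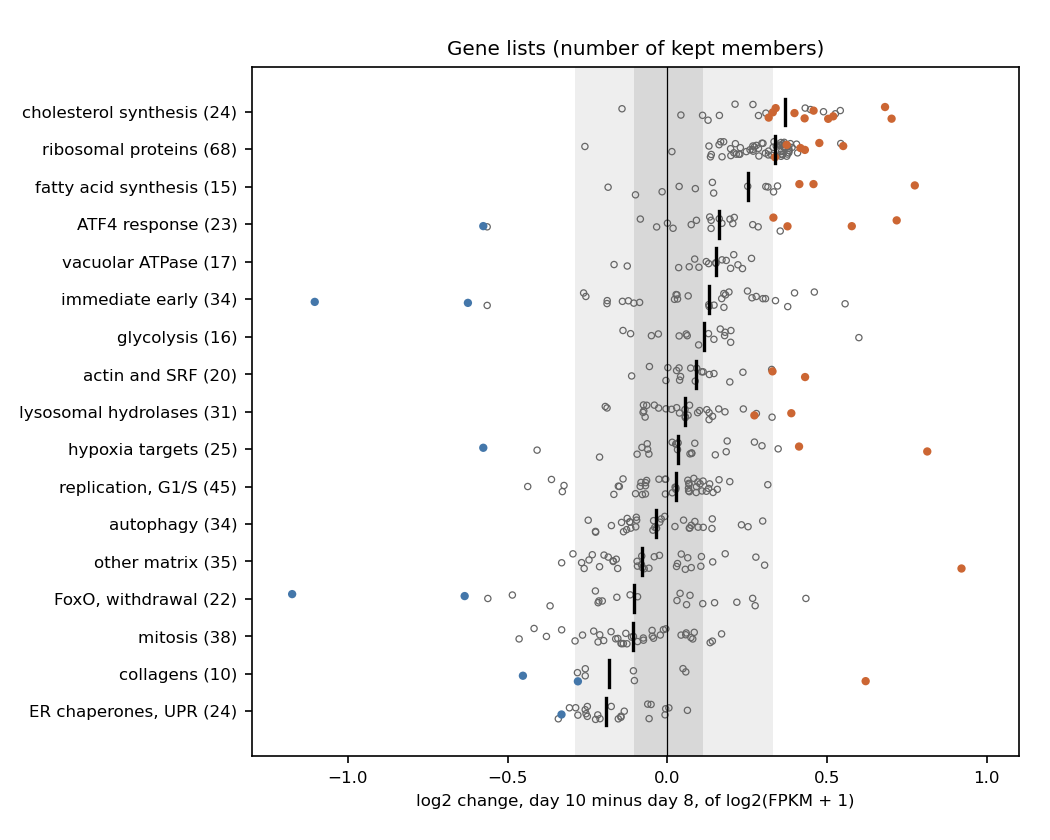
Change from day 8 to day 10 (log2 of FPKM + 1, x axis) of each member of the gene lists (rows), with members past the threshold filled in orange (higher at day 10) or blue (lower), black bars at list medians, and grey bands from the 25 to the 75 percentile (dark) and from the 5 to the 95 percentile (light) of all genes kept other than short RNA genes. The cholesterol list has its median at 0.37 and the ribosomal protein list at 0.34.

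Fatty acid genes were next. Of 15 tested, 3 rose and 0 fell, with a median of 0.25, and 9 of 15 were entirely higher at day 10. Of all genes tested, 1.19% rose and 8.72% were entirely higher. Besides Acss2 these were the delta-5 desaturase Fads1 (19.6, 22.2 and 19 FPKM at day 8 and 27.9, 29.2 and 27.4 FPKM at day 10, adjusted p = 0.00423) and the mitochondrial citrate carrier Slc25a1 (113, 124 and 118 FPKM at day 8 and 152, 149 and 174 FPKM at day 10, adjusted p = 0.0139). Neither gene's groups overlapped. ATP citrate lyase (Acly), which splits exported citrate into acetyl-CoA, stood at 138 ± 1.9 and 175 ± 7.75 FPKM (adjusted p = 0.108), and fatty acid synthase (Fasn) at 64.3 ± 4.22 and 71 ± 3.45 FPKM (adjusted p = 0.808). The transcription factor Srebf1 stood at 18.6 ± 0.431 and 18.4 ± 1.44 FPKM (adjusted p = 0.97). The Fads1 and Slc25a1 calls were lost with libraries rescaled to an equal sum, which left 1 rise in the list and a median of 0.11, and adjusted p passed 0.05 without 1 library for Slc25a1 (0.0651 to 0.113 with day 8 replicate 1 or 3 or day 10 replicate 3 left out).

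Some ribosomal protein genes rose, unevenly between replicates. Of 76 listed, 68 were tested, of which 6 rose and 0 fell, where 1.19% of all genes tested rose. A positive change was seen in 67, and the median was 0.34 (log2). The 6 were Rpl4 (from 767 ± 38.4 to 1070.0 ± 106 FPKM, adjusted p = 0.00148), Rpl23a (from 1480.3 ± 65.4 to 1984 ± 213 FPKM, adjusted p = 0.03), Rpl7 (from 763 ± 38.9 to 1035 ± 143 FPKM, adjusted p = 0.0302), Rps4x (from 1319 ± 36.6 to 1718 ± 207 FPKM, adjusted p = 0.0335), Rpl5 (from 527 ± 10.04 to 668 ± 62.7 FPKM, adjusted p = 0.0341) and Rpl28 (from 195 ± 22 to 288 ± 58.8 FPKM, adjusted p = 0.0393). All encode proteins of the ribosomal subunits, and reads of processed pseudogenes can be shared with such genes. In 36 of the 68 all day 10 libraries lay above all day 8 libraries, against 8.72% of all genes. The list mean relative to the day 8 mean was -0.12, 0.085 and 0.035 (log2) in day 8 replicates 1, 2 and 3 and 0.061, 0.414 and 0.436 in day 10 replicates 1, 2 and 3. Day 10 replicate 1 therefore lay within the day 8 range, and the other 2 lay above it. Without day 10 replicate 1, 22 members rose, and without any 1 of the other 5 libraries 1 did. With replicates 2 and 3 of both days alone, 37 rose. Rescaling to an equal sum or quantile normalization left 2 rises, and the median under quantile normalization was 0.10. Replicate 1 was also the library with the lowest tail of values at both days (0.0824 and 0.106 FPKM at the 5th percentile). It had the most genes above 0 at both days (10447 and 10438), as a deeper library would. The part of depth in this result was not tested. Of 29 ribosome biogenesis genes 0 rose and 0 fell, with a median of 0.042, and of 29 mitochondrial ribosomal protein genes also 0 and 0, with a median of 0.058. Both of these medians turned negative after rescaling to an equal sum (-0.096 and -0.079).

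**Figure D4:**
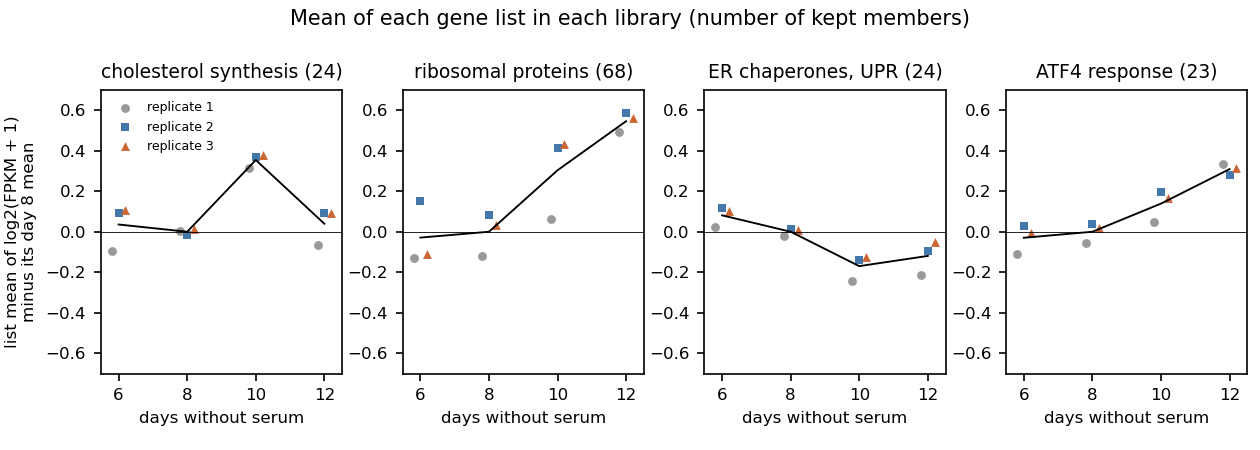
Mean of log2(FPKM + 1) over each of 4 gene lists minus its day 8 mean (y axis) in each library of days 6, 8, 10 and 12 (x axis), with a symbol per replicate number and lines through group means. Between days 8 and 10, cholesterol genes separate the days in all replicates, whereas ribosomal proteins put day 10 replicate 1 (0.061) beside day 8 replicate 2 (0.085).

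Genes of amino acid synthesis rose among the targets of ATF4, a transcription factor translated when amino acids are scarce or the endoplasmic reticulum is under stress. Of 23 listed targets tested, 4 rose and 1 fell, where 1.19% of all genes tested rose and 0.336% fell. The median was 0.16. In 6 of the 23 all day 10 libraries were higher and in 2 all lower, against 8.72% and 8.26% of all genes. Phgdh and Psat1, the first enzymes of serine synthesis from a glycolytic intermediate, stood at 35.4, 35.6 and 30.6 FPKM at day 8 and 42.2, 57.9 and 53.9 FPKM at day 10 and at 16, 14.9 and 17.6 FPKM at day 8 and 21.3, 29.7 and 31.9 FPKM at day 10, respectively. In both, day 10 replicate 1 was the lowest of its group and still above all day 8 libraries (adjusted p = 0.0126 and 0.00865). The asparagine synthetase gene Asns rose from 23.3 ± 1.04 to 30.6 ± 0.741 FPKM (adjusted p = 0.0155) and Atf4 itself from 525 ± 2.94 to 663 ± 52.8 FPKM (adjusted p = 0.0201). Psph, the last enzyme of serine synthesis, stood at 12.8 ± 3.3 and 16.4 ± 1.09 FPKM (adjusted p = 0.306). Stc2 was the member that fell, and the stress effectors Ddit3 (62.5 ± 9.09 and 68.2 ± 2.44 FPKM) and Trib3 (29.1 ± 1.19 and 33.8 ± 0.574 FPKM) did not pass (adjusted p = 0.756 and 0.587). Of 20 cytosolic tRNA synthetases, many of them ATF4 targets too, 1 rose, the tyrosyl enzyme Yars (from 20.2 ± 0.343 to 28.5 ± 4.25 FPKM, adjusted p = 0.0019). Adjusted p went above 0.05 with 1 library omitted for Psat1 (0.0552 to 0.0836 with day 8 replicate 2 or day 10 replicate 2 or 3 left out), Phgdh (0.0824 to 0.109 with day 8 replicate 3 or day 10 replicate 2 or 3 left out), Asns (0.0664 to 0.0855 with day 8 replicate 2 or 3 or day 10 replicate 3 left out) and Atf4 (0.0655 to 0.167 with day 8 replicate 1, 2 or 3 or day 10 replicate 2 or 3 left out). The Phgdh, Asns, Atf4 and Yars calls were also lost with libraries rescaled to an equal sum, where the median of the ATF4 targets was 0.031.

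Endoplasmic reticulum chaperones and unfolded protein response genes lay lower at day 10, with 1 call. Of 24 tested, 0 rose and 1 fell, where 0.336% of all genes tested fell. The median was -0.19, and 22 of 24 were negative. The number of falls was 5 with libraries rescaled to an equal sum, 7 with short RNA genes left out, 4 under quantile normalization and 3 under upper quartile scaling. The gene called was calreticulin (Calr), a calcium-binding chaperone of glycoproteins, with 597, 617 and 599 FPKM at day 8 and 450.1, 498 and 490.0 FPKM at day 10. Its 3 day 10 libraries lay below the 3 day 8 libraries (1.26-fold lower, adjusted p = 0.00173). In 12 of the 24 the day 10 libraries lay entirely below the day 8 libraries, against 8.26% of all genes. Hsp90b1 stood at 308, 329 and 318 FPKM at day 8 and 249, 279.8 and 275 FPKM at day 10 (adjusted p = 0.0736) and the chaperone Hspa5, also called BiP, at 328, 357 and 354 FPKM at day 8 and 267, 315 and 318 FPKM at day 10 (adjusted p = 0.288), and neither passed. Relative to the day 8 mean, the list mean was -0.243, -0.140 and -0.127 in the 3 day 10 libraries and between -0.021 and 0.012 at day 8.

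Collagens and other matrix genes went both ways, with more members lower than higher at day 10. Of 10 collagens 1 rose and 2 fell, where 1.19% of all genes tested rose and 0.336% fell. The median was -0.18, and 3 of the 10 had a positive change. In 1 of the 10 all day 10 libraries were higher and in 5 all lower, against 8.72% and 8.26% of all genes. Col18a1, a basement membrane collagen and the source of endostatin, stood at 87.5, 83.3 and 80.5 FPKM at day 8 and 119, 134 and 135 FPKM at day 10 and rose 1.54-fold (adjusted p = 1.46e-06). Both chains of collagen V that fell help to nucleate collagen I fibrils: Col5a1 stood at 103, 102 and 109 FPKM at day 8 and 84.4, 70.9 and 74 FPKM at day 10 (adjusted p = 0.0158) and Col5a2 at 556, 533 and 579.8 FPKM at day 8 and 472, 444 and 458 FPKM at day 10 (adjusted p = 0.0397). Day 10 lay entirely below day 8 in both. Col1a1, the main fibrillar collagen chain, stood at 1175 ± 76.3 and 989.7 ± 146 FPKM and did not pass (adjusted p = 0.47). Of 35 other matrix genes 1 rose, Postn, and 0 fell, with a median of -0.077 and 13 positive changes. All day 10 libraries were higher in 3 of the 35 and lower in 9. Of 23 listed secreted factors of senescence 2 rose, among them Serpine2, and 2 fell, Cxcl12 and the metalloproteinase inhibitor Timp2 (from 721 ± 34.9 to 582 ± 21.5 FPKM, adjusted p = 0.0164). Among these 23, all day 10 libraries were higher in 4 and lower in 8. Omitting 1 library took the adjusted p above 0.05 for Col5a1 (0.0503 to 0.111 with day 8 replicate 2 or 3 or day 10 replicate 2 or 3 left out), Col5a2 (0.065 to 0.251 with day 8 replicate 1, 2 or 3 or day 10 replicate 2 or 3 left out) and Timp2 (0.0505 to 0.0965 with day 8 replicate 1 or 3 or day 10 replicate 2 or 3 left out). With libraries rescaled to an equal sum the medians of the collagens and other matrix genes were -0.32 and -0.21, and 2 of the other matrix genes fell.

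Targets of the growth and tension regulators SRF and YAP contributed a few rises. Of 14 YAP targets 2 rose and 0 fell, where 1.19% of all genes tested rose and 0.336% fell. The median of the YAP targets was -0.065, and 4 of the 14 had a positive change. In 2 of the 14 all day 10 libraries were higher and in 5 all lower, against 8.72% and 8.26% of all genes. Cyr61 and Ctgf, matricellular proteins that are the usual readouts of YAP, stood at 347, 363 and 378 FPKM at day 8 and 499, 555 and 584 FPKM at day 10 and at 4827, 4499 and 4666 FPKM at day 8 and 5899, 6203 and 6166 FPKM at day 10, with no overlap (adjusted p = 0.000619 and 0.00689). Ankrd1, another usual readout, stood at 22.7 ± 1.33 and 22.6 ± 2.35 FPKM (adjusted p = 0.981). Of 20 actin cytoskeleton and SRF genes 2 rose, the smooth muscle proteins Tagln (from 6217 ± 485 to 8403 ± 895 FPKM, adjusted p = 0.029) and Cnn1 (from 165 ± 7.69 to 208 ± 14.9 FPKM, adjusted p = 0.0393), with a median of 0.090 that was -0.050 after rescaling to an equal sum. Smooth muscle actin (Acta2) stood at 4615, 5647 and 5197 FPKM at day 8 and 5146, 6959 and 7469 FPKM at day 10 (adjusted p = 0.268). It passed in 3 of 22 alternative settings. The Ctgf change was 0.02 under quantile normalization, and its call was lost without day 8 replicate 2 (adjusted p = 0.0515). Adjusted p also exceeded 0.05 for Tagln (0.065 to 0.22 with day 8 replicate 2 or 3 or day 10 replicate 2 or 3 left out) and Cnn1 (0.0582 to 0.228 with day 8 replicate 1, 2 or 3 or day 10 replicate 2 or 3 left out). With libraries rescaled to an equal sum the Ctgf, Tagln and Cnn1 calls were lost, and the YAP median was -0.21. Of 34 immediate early genes, which answer growth factors within minutes, 0 rose and 2 fell, Klf2 and Klf4, with a median of 0.13 that was -0.005 after rescaling to an equal sum. In 13 of the 34 all day 10 libraries were higher and in 3 all lower, against 8.72% and 8.26% of all genes. Egr1, an immediate early transcription factor, stood at 26.7, 27.4 and 20.2 FPKM at day 8 and 43.2, 30.05 and 37.8 FPKM at day 10 (adjusted p = 0.0549). Among 22 genes controlled by FoxO or by loss of growth factors, 0 rose and 2 fell, Txnip and Mxd4. The muscle filament gene Des, among the 4 muscle markers tested, rose from 14.8 ± 0.902 to 22.3 ± 2.98 FPKM (adjusted p = 0.00504), a call lost without day 10 replicate 2 (adjusted p = 0.06) and with libraries rescaled to an equal sum (adjusted p = 0.0788). The sum of the muscle markers, given above, was higher at day 10. It includes Des, so it is not a separate observation, but its highest member was Tnnc1 (up to 70.4 FPKM). Of the 4 tested, 3 had a positive change, and the lowest change was -0.26. The part of the other markers in this result was not tested.

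Glycolysis and hypoxia genes showed few changes. Of all genes tested 1.19% rose and 0.336% fell. Of 16 glycolysis genes tested 0 rose and 0 fell, with a median of 0.11 that turned to -0.026 after rescaling to an equal sum, -0.011 with short RNA genes left out and -0.019 under quantile normalization. From day 6 to day 8, 5 of the 16 had risen and 0 had fallen, and the 2 steps share the day 8 libraries. Phosphoglycerate kinase (Pgk1) stood at 1080.1, 1083 and 1012 FPKM at day 8 and 1139.8, 1286 and 1223 FPKM at day 10 (adjusted p = 0.281), lactate dehydrogenase (Ldha) at 1779 ± 40.02 and 1751 ± 171 FPKM (adjusted p = 0.939), hexokinase 2 (Hk2) at 19.3 ± 1.82 and 17.7 ± 1.2 FPKM (adjusted p = 0.866) and the glucose transporter Slc2a1 at 25.8 ± 2.91 and 29.4 ± 3.14 FPKM (adjusted p = 0.724). Ldha passed in 1 of 22 alternative settings, as a fall, and Pgk1 in 1, as a rise. Of 25 hypoxia-type genes 2 rose, among them the transcriptional repressor Bhlhe40 (from 25.3 ± 2.36 to 33.9 ± 1.2 FPKM, adjusted p = 0.0331), and Stc2 fell. The angiogenic factor Vegfa (342 ± 12.5 and 362 ± 36.1 FPKM, adjusted p = 0.846), the mitophagy receptor Bnip3 (101 ± 11 and 114 ± 3.68 FPKM, adjusted p = 0.408) and the oxygen-regulated factor Hif1a (33 ± 1.91 and 34.5 ± 1.9 FPKM, adjusted p = 0.888) did not pass. The 5-letter core of hypoxia response elements, ACGTG, was found in 10 of 15 glycolysis promoters with a window and in 14 of 21 hypoxia promoters (66.7% of each), against 28.0% of genes tested. The variant GCGTG was found in 7 of the 15 and 15 of the 21 (46.7% and 71.4%), against 53.4%. The Bhlhe40 call was lost without any 1 of day 8 replicates 2 and 3 and day 10 replicates 1, 2 and 3 (adjusted p from 0.0533 to 0.253) and with libraries rescaled to an equal sum.

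Some lysosomal genes rose over these 2 days, with a result that depended on scaling. Of 31 hydrolases 2 rose, the cysteine protease Ctsf (from 39.95 ± 3.92 to 52.5 ± 1.32 FPKM, adjusted p = 0.0185) and the mannosidase Man2b1 (from 86.7 ± 4.66 to 105 ± 6.58 FPKM, adjusted p = 0.0331), and 0 fell. Of all genes tested 1.19% rose and 0.336% fell. In 6 of the 31 all day 10 libraries were higher and in 1 all lower, against 8.72% and 8.26% of all genes. Of 20 genes grouped as lysosomal membrane proteins 4 lay entirely higher at day 10 and 1 entirely lower. Past the threshold, 0 of the 20 fell and 2 rose. These were the lumenal cholesterol carrier Npc2, which stood at 701, 745 and 719.5 FPKM at day 8 and 861, 1133 and 1062 FPKM at day 10 (adjusted p = 0.00112), and the phosphoinositide phosphatase Tmem55b (from 56.4 ± 1.74 to 73.8 ± 6.45 FPKM, adjusted p = 0.03). Cathepsin D (Ctsd) stood at 692 ± 25.5 and 724 ± 38.7 FPKM, Lamp1 at 771 ± 50.8 and 789.6 ± 17.6 FPKM, beta-galactosidase (Glb1) at 53.9 ± 2.81 and 51.1 ± 2.08 FPKM and the lysosomal regulator Tfeb at 6.02 ± 0.588 and 6.1 ± 1.27 FPKM, and none of the 4 passed (adjusted p = 0.737, 0.915, 0.771 and 0.997). Of 17 vacuolar ATPase genes and 34 autophagy genes 0 rose and 0 fell, with medians of 0.15 and -0.036 (0.011 and -0.17 with libraries rescaled to an equal sum). Of 33 antioxidant genes 3 rose, among them the ferritin heavy chain Fth1 (985, 1078 and 994 FPKM at day 8 and 1280.0, 1444 and 1484 FPKM at day 10, adjusted p = 0.00485) and Pgd, an NADPH-producing enzyme (from 125 ± 4.65 to 153 ± 12.2 FPKM, adjusted p = 0.0358). Entirely higher at day 10 were 8 of the 33, and 1 was entirely lower. Adjusted p exceeded 0.05 in the absence of 1 library for Ctsf (0.0834 to 0.184 with day 8 replicate 3 or day 10 replicate 2 or 3 left out), Man2b1 (0.0602 to 0.213 with day 8 replicate 1, 2 or 3 or day 10 replicate 2 or 3 left out), Tmem55b (0.0586 to 0.19 with day 8 replicate 1, 2 or 3 or day 10 replicate 2 or 3 left out) and Pgd (0.0809 to 0.21 with day 8 replicate 1, 2 or 3 or day 10 replicate 2 or 3 left out). All of these calls and that of Fth1 were lost with libraries rescaled to an equal sum. The median of the hydrolases was 0.057, and after that rescaling -0.081, with 0 rises and 1 fall. With short RNA genes left out the hydrolase median was -0.065, with 0 rises and 2 falls.

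Among the cell cycle lists 1 gene passed, where 1.19% of all genes tested rose and 0.336% fell. Of 18 cell cycle control genes the CDK4/6 inhibitor gene Cdkn2b rose, with 40.7, 30.9 and 35 FPKM at day 8 and 47.9, 47.8 and 48.3 FPKM at day 10 (adjusted p = 0.0223), and the day 10 libraries lay within 1 FPKM of each other. The other CDK inhibitors Cdkn1a (211 ± 11.4 and 199 ± 7.78 FPKM, adjusted p = 0.871), Cdkn1b (56.4 ± 3.22 and 54.6 ± 3.21 FPKM, adjusted p = 0.916) and Cdkn2a (16.1 ± 1.11 and 19.5 ± 6.22 FPKM, adjusted p = 0.781) did not pass, nor did cyclin D1 (Ccnd1, 289 ± 17.1 and 273 ± 22 FPKM, adjusted p = 0.822) or Myc (4.9 ± 1.58 and 5.53 ± 0.903 FPKM, adjusted p = 0.768). Of 45 replication and 38 mitosis genes 0 rose and 0 fell, with medians of 0.027 and -0.11 (-0.096 and -0.19 after rescaling to an equal sum). The proliferation marker Mki67 stood at 0.127 ± 0.0341 and 0.0713 ± 0.0539 FPKM, cyclin A2 (Ccna2) at 0.292 ± 0.278 and 0.363 ± 0.247 FPKM, E2f1 at 6.2 ± 0.683 and 6.26 ± 0.291 FPKM and the polymerase clamp Pcna at 66.2 ± 1.26 and 70.7 ± 3.25 FPKM (adjusted p = 0.931, 0.933, 0.979 and 0.769). The Notch target Hes1 stood at 9.29 ± 1.66 and 11.4 ± 1.004 FPKM (adjusted p = 0.571). Of 25 p53 targets, 31 proteasome, 35 respiratory chain, 21 tricarboxylic acid cycle and 42 splicing genes 0 passed in either direction, with medians between -0.019 and 0.077. After rescaling to an equal sum the positive medians of the proteasome, respiratory chain, tricarboxylic acid cycle and splicing lists turned negative (-0.063, -0.076, -0.115 and -0.129), and 1 tricarboxylic acid cycle gene fell. The Cdkn2b call was lost without any 1 of day 8 replicates 2 and 3 and day 10 replicates 2 and 3 (adjusted p from 0.0787 to 0.162) and after rescaling to an equal sum.

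The same test was applied to the steps on either side, each of which shares 3 libraries with this one. From day 6 to day 8, 64 genes rose and 65 fell (0.716% and 0.727%, in all 1.44% of genes tested), and from day 10 to day 12, 110 rose and 191 fell (1.23% and 2.14%, in all 3.37%). Whether a gene's change differed from its change in the neighbouring step was tested as a contrast in the same model. Against the step before, 4 genes were more positive (0.0447%) and 0 more negative, by limma with Benjamini-Hochberg adjustment. These were Spp1, which changed by 0.70 ± 0.10 (log2) from day 6 to 8 and by 2.06 ± 0.10 from day 8 to 10 (difference 1.36 ± 0.17, adjusted p = 0.000199), Acss2 (-0.0093 ± 0.085 and then 0.78 ± 0.085, adjusted p of the difference = 0.0349), Fads1 (-0.35 ± 0.086 and then 0.46 ± 0.086, adjusted p = 0.0349) and the actin-binding protein Lsp1. Lsp1 stood at 52 ± 1.78 and 56.7 ± 6.07 FPKM and did not pass in the step itself (adjusted p = 0.641). In the fit of the 12 libraries of days 6 to 12 alone this count was 0.

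Against the step after, 80 genes were more positive and 20 more negative (0.895% and 0.224%, in all 1.12% of genes tested). The day 10 libraries enter both steps. Cyr61 was among the genes more positive. It averaged 363 ± 15.5, 546 ± 43.1 and 191 ± 3.97 FPKM at days 8, 10 and 12 (adjusted p of the difference = 2.97e-09). Of the 24 cholesterol genes, 11 were more positive in this step than in the next, among them Insig1 (a log2 change of 0.50 ± 0.078 and then -0.38 ± 0.078, adjusted p of the difference = 0.000723), Hmgcs1 (0.40 ± 0.08 and then -0.32 ± 0.08, 0.00757) and Msmo1 (0.52 ± 0.084 and then -0.26 ± 0.084, 0.006). The list's median change was -0.034, 0.37 and -0.32 in the steps from day 6 to 8, 8 to 10 and 10 to 12. Txnip fell in this step and averaged 73.9 ± 6.22, 33.6 ± 1.62, 14.6 ± 3.5 and 7.31 ± 1.7 FPKM at days 6, 8, 10 and 12, and its change did not pass as different from either neighbouring step (adjusted p = 1 and 0.968).

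**Figure D5:**
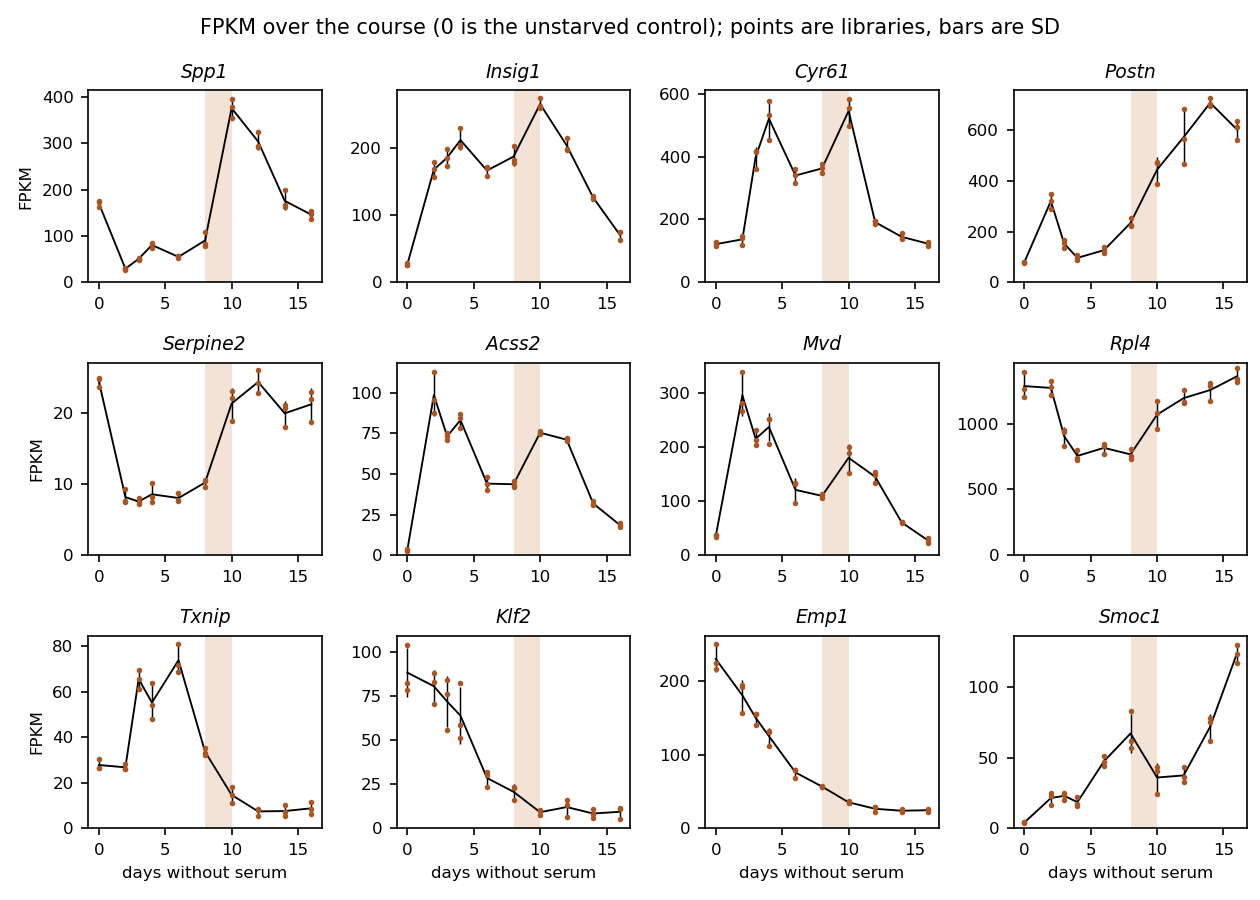
FPKM of 12 genes (y axis, linear, from 0) against days of serum starvation, with points for the 3 libraries of each group, lines through group means, bars for SD and the interval from day 8 to day 10 shaded. Spp1 steps up and Txnip falls within the shaded interval.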

How the data were processed

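RNA sequencing libraries of REF cells were compared after 8 and 10 days of serum starvation. The submitters' processing notes name the rn6 build and the tools Cufflinks, Cuffnorm (2.2.1) and TopHat2 (2.1.1). The authors deposited FPKM values for 17353 gene symbols, and how they scaled the libraries, and on which annotation, is not given in the sources used here. No counts were used, so depth and counting error are unknown.

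Genes with a mean of at least 1 FPKM over the 30 libraries (8940) were kept. Values were analysed as log2(FPKM + 1), which understates changes of low genes. A model of the 10 group means, with a mean-variance trend and no replicate block, was fitted in limma (3.58.1, R 4.3.3). Tests were two-sided, adjusted by the Benjamini-Hochberg method over all 8940 genes, with a threshold of 0.05, and the code was checked on simulated data. An exact permutation test of 3 against 3 libraries cannot go below p = 0.1.

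Genes named were the 15 largest rises and 15 largest falls past the threshold with at least 5 FPKM and no overlap between the days, leaving out provisional and short RNA symbols, members of 47 gene lists described by role, and fixed genes. Some genes that this rule names are not reported here, though counts over all genes and lists include them. The members and lists were chosen with earlier results of these data known. There were 22 alternative settings. Promoters came from RefSeq (GRCr8), matched by symbol, and no rn6 coordinates were used.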

Additional observations from a re-analysis of the deposited data

Results flagged for a closer look

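The values here stood out because a gene's change from day 8 to day 10 differed from its change in a neighbouring step, by a test of the difference in the same limma fit. Each pair of steps shares 3 libraries. Counts of genes are over all genes tested. The genes named here were picked for a large change from day 8 to day 10, and each difference is computed from those same values. Noise that enlarged a gene's change also enlarged its difference in the same direction. The sizes of the differences are thus not independent of the choice of genes. No cause was tested.

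Against the step from day 6 to day 8, 4 genes were more positive and 0 more negative. Of the genes with the largest changes, Spp1 was more positive by 1.36 ± 0.17 (log2, ± SE) and Acss2 by 0.78 ± 0.15.

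Against the step from day 10 to day 12, 80 genes were more positive and 20 more negative. Spp1 differed by 2.37 ± 0.17 (log2), Cntf by 1.6 ± 0.39, Ugt1a2 by 1.55 ± 0.24, Lmcd1 by 1.11 ± 0.21 and Mvd by 1.01 ± 0.22. Acss2 differed by 0.86 ± 0.15 and Serpine2 by 0.80 ± 0.18. Among genes that fell, Nkain4 differed by -0.86 ± 0.18. Spp1 stood at 376 ± 20.7 FPKM at day 10 and 304 ± 18.4 FPKM at day 12 (mean ± SD, n = 3), while Serpine2 stood at 21.3 ± 2.19 and 24.3 ± 1.65 FPKM. Nkain4 stood at 144 ± 0.231 and 172 ± 19.6 FPKM.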

How the results depend on the processing

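All of the 136 genes called kept their sign under each of the 22 alternatives that tested them, but the counts moved and so did list medians. The median changed sign in 23 of the 47 lists with a sum of 1000000, in 22 with short RNA genes left out, in 8 under quantile normalization and in 2 each under upper quartile scaling and with replicates 2 and 3 only. With a sum of 1000000 the calls also went from mostly rises to mostly falls. Rescaling to a sum of 1000000 gave 25 rises and 81 falls, and leaving out short RNA genes with rescaling 38 and 112. Upper quartile scaling gave 129 and 47, quantile normalization 84 and 52, and replicates 2 and 3 only 249 and 117. The 6 libraries alone gave 10 and 7, and the 12 libraries of days 6 to 12 gave 44 and 16. Leaving out 1 library gave 35 to 154 rises and 13 to 39 falls. Of cholesterol genes, 3 rose with a sum of 1000000, 4 with short RNA left out, 0 in the fit of 6 libraries and 5 to 8 on leaving out 1 library. Of ribosomal protein genes, 2 rose with a sum of 1000000 or quantile normalization, 11 with upper quartile scaling, 0 in the fit of 6 libraries, 1 in that of 12, 37 with replicates 2 and 3 only and 1 to 22 on leaving out 1 library. In the fit of 12 libraries, 0 genes were more positive than in the step before, and 30 more positive and 4 more negative than in the step after.

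Deviations of same-numbered libraries from their group means correlated at 0.259, 0.0223 and 0.128 across genes. Day 10 replicate 3 correlated best with day 8 replicate 2 (0.158), and at -0.254 with day 8 replicate 1. The labels do not say what the numbers share, and they were not taken as pairs. Any difference that same-numbered libraries share therefore stays in the spread of the main fit. In all 10 groups, however, replicate 1 had the lowest 5th percentile of non-zero values (0.0797 to 0.114 FPKM, against 0.156 to 0.291 FPKM in replicates 2 and 3) and the most genes above 0, and what the replicate 1 libraries share was not tested. A replicate block in the fit of 30 libraries gave 212 rises and 74 falls, and in the fit of 6 libraries 4 and 1. With the block, 13 cholesterol and 27 ribosomal protein genes rose in the larger fit and 0 of either in the smaller. The block gave 12 genes more positive than in the step before, and 170 more positive and 44 more negative than in the step after.

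Of 80 genes named and called, 32 kept the call without each library in turn, and 42 lost it after 1 or both of the rescalings. The fit of 6 libraries lost 68 of the 80 calls, the same fit with a replicate block 76, and the fit of 12 libraries 36. Most named calls thus rest on a spread estimated with other days. Only 3 calls were lost under no setting, those of Spp1, Serpine2 and Acss2. Depth is unknown, so a change missed in a low gene cannot be told from limited depth.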

Other observations

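Some further genes past the threshold are given here, all chosen after their values were seen, with adjusted p in parentheses. The acyl-CoA synthetase gene Acsl1 stood at 37.8, 36.3 and 36.2 FPKM at day 8 and 52.3, 57 and 56.2 FPKM at day 10 (adjusted p = 0.00173 by limma), with all day 10 libraries above all day 8 libraries. Lpcat3, which remodels phospholipids, rose from 53.4 ± 7.28 to 71.8 ± 4.4 FPKM (adjusted p = 0.0121), the elongation enzyme Tecr from 388 ± 29 to 512 ± 49.9 FPKM (0.00865) and Pcyt2, of phosphatidylethanolamine synthesis, from 120.1 ± 8.99 to 162 ± 6.63 FPKM (0.0406). Mid1ip1, which activates acetyl-CoA carboxylase, rose from 43.5 ± 0.427 to 55.8 ± 3.64 FPKM (0.0406). Leaving out 1 library ended the calls of Lpcat3 (0.138 and 0.0931 with day 8 replicate 3 or day 10 replicate 3 left out), Tecr (0.0622 to 0.076 with day 8 replicate 1 or day 10 replicate 2 or 3 left out), Pcyt2 (0.0603 to 0.181 with day 8 replicate 1, 2 or 3 or day 10 replicate 1, 2 or 3 left out) and Mid1ip1 (0.0989 to 0.223 with day 8 replicate 1, 2 or 3 or day 10 replicate 2 or 3 left out). These 4 calls, and those of Got1, Eef1g and Rcan1 given next, were also lost with libraries rescaled to an equal sum. The aspartate aminotransferase Got1 rose from 18.3 ± 0.748 to 24 ± 2.52 FPKM (0.0204) and the translation elongation factor subunit Eef1g from 965 ± 16.4 to 1209 ± 94.4 FPKM (0.0158), with calls that ended for Got1 (0.053 to 0.149 with day 8 replicate 1, 2 or 3 or day 10 replicate 2 or 3 left out) and Eef1g (0.065 to 0.117 with day 8 replicate 2 or 3 or day 10 replicate 2 or 3 left out).

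Sgca, alpha-sarcoglycan, stood at 30.7, 35.1 and 31.1 FPKM at day 8 and 46.7, 46.5 and 52.4 FPKM at day 10 and rose (adjusted p = 0.00319). The muscle enolase Eno3 fell from 29 ± 3.94 to 21 ± 1.35 FPKM (0.018), and the adjusted p passed 0.05 for Eno3 (0.0774 to 0.176 with day 8 replicate 2 or 3 or day 10 replicate 2 left out), while the calcineurin regulator Rcan1 rose from 59.9 ± 3.88 to 85.8 ± 7.58 FPKM (0.00457). The GTPase gene Rhob stood at 48.1, 45.4 and 45.9 FPKM at day 8 and 35.1, 29.6 and 31.2 FPKM at day 10 and fell 1.44-fold (0.000202), and the heparan sulfate proteoglycan gene Sdc1 fell from 53.6 ± 1.63 to 40.6 ± 3.47 FPKM (0.000811). The microRNA gene Mir3554 was listed at 0 in all day 8 libraries and at 308, 0 and 11043 FPKM in day 10 replicates 1, 2 and 3, and short RNA genes made up 0.276%, 1.55% and 1.46% of the FPKM sum there.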
